A study of Homo sapiens with 6 samples.

Results

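The genes examined here form a signalling module that turns on the small GTPase RAC1 during cell migration, together with the receptor gene GPR141. The module was taken as 10 genes, chosen with earlier results of these data known, so counts of calls among them are descriptive. These were the adaptors ELMO1, ELMO2 and ELMO3, the exchange factors DOCK1, DOCK4 and DOCK5, the GTPases RAC1 and RHOG, the adaptor CRK, and GPR141. Each gene was read from the probe set that the platform annotation gives to that symbol alone, taking the brightest over the 6 arrays where several exist. This gave 1 probe set for each of 9 genes among the 33578 genes tested, and CRK was not analysed here. RNA came from KPL4, an established human inflammatory breast cancer line, grown with serum, insulin and hydrocortisone, and was read on 6 Affymetrix arrays. The cells of 3 samples carried a CRISPR/Cas9 knockout of ESR2, which encodes estrogen receptor beta (ERβ), and 3 samples were control KPL4 cells. The labels call the 3 samples of a group biological replicates, but give neither the source of each replicate nor the clonal state of the knockout line, nor any treatment of the controls. Since separate cultures are not stated, p-values reflect the spread of these samples alone, some of which may be technical.

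ELMO proteins have no enzyme activity of their own. They bind DOCK proteins, and the ELMO-DOCK complex loads GTP onto RAC1, which drives actin polymerisation at the leading edge of migrating cells and around particles that are being engulfed. Active RHOG binds ELMO and brings the complex to the membrane, and CRK links DOCK1 to the scaffold p130Cas at adhesion sites. In breast cancer cells this pathway is known for its part in migration and invasion. GPR141 is an orphan G protein-coupled receptor, with no accepted ligand.

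Values are deposited log2 signals, and folds are given as if a difference of 1 were a 2-fold change. Since the highest value is 19.92, above the 16 of a plain log2 16-bit reading, the scale may be stretched. Folds then hold on the deposited scale alone. The median signal over all probe sets was 4.08 to 4.09 on knockout and 4.09 to 4.11 on control arrays. The probe set of ESR2 averaged 3.997 ± 0.093 in knockout and 3.95 ± 0.23 in control cells (SD, n = 3 each). Both means lay below the olfactory receptor background level defined below, so the arrays did not check the knockout label. Probes differ in how well they bind, so the signals of different genes are not ranked as expression levels. All 6 breast epithelial markers (EPCAM, KRT8, KRT18, KRT19, CDH1 and ERBB2) were above the background level defined below in both groups, and KRT19 rose 2.37-fold (limma adjusted p = 0.00010). Of the other markers, 1 of 9 leukocyte, 1 of 5 endothelial and 2 of 5 fibroblast genes were above it in knockout cells, and 1, 0 and 2 in control cells. None of these 19 markers passed the test between groups.

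To ask which partners are expressed, each gene was set beside 373 olfactory receptor genes, which are hardly transcribed outside the nose. Their 95th percentile, used as the background level, was 5.64 in knockout and 5.66 in control cells. The margin over this level serves as a check of detection for each probe set and does not order the genes by expression. Group means of all 9 measured genes lay above it in both groups. ELMO3 was 0.70 above the background level in knockout and 0.18 in control cells, where 4 and 13 olfactory receptor genes were brighter. GPR141 exceeded the level by 2.55 in knockout and by 0.91 in control cells. ELMO1 exceeded it by 5.14 in knockout and by 1.51 in control cells. ELMO2 was above it by 2.67 in knockout and 2.38 in control cells, DOCK1 by 2.98 and 2.53, DOCK4 by 2.02 in each group, and RHOG by 2.67 in knockout and 2.54 in control cells. DOCK5 and RAC1 exceeded it by 6.74 and 10.69 in knockout and by 6.96 and 10.93 in control cells. In the plot of signals over olfactory receptor genes, ELMO3 lies within the upper tail of that distribution in both groups. A few olfactory receptor genes were brighter than some other genes too. In control cells these were 3 each for ELMO1 and GPR141 and 1 each for ELMO2 and DOCK4. In knockout cells they were 1 each for GPR141 and DOCK4, and 0 for ELMO1 and ELMO2. For DOCK1, DOCK5, RAC1 and RHOG there were 0 in both groups. At the stricter 99th percentile, 6.33 in knockout and 6.34 in control cells, 8 of the 9 genes stayed above in both groups, and ELMO3 did not.

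**Figure D1:**
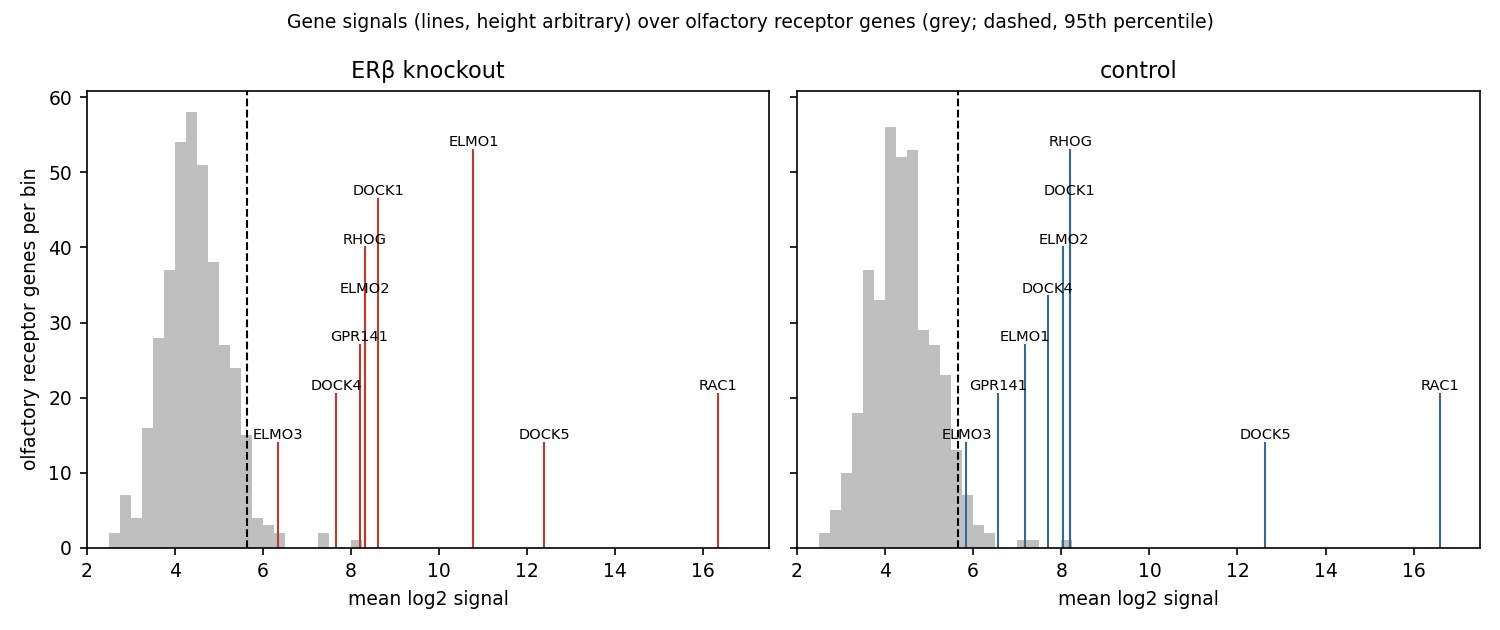
Mean log2 signal on the horizontal axis and number of olfactory receptor genes per bin on the vertical axis, for ERβ knockout (left) and control cells (right). Grey bars are the 373 olfactory receptor genes, the dashed line is their 95th percentile (5.64 in knockout and 5.66 in control cells), and coloured lines, whose heights carry no value, mark the 9 genes, all to the right of the dashed line.

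Among the 9 measured genes, ELMO1 and GPR141 rose in knockout cells, none fell, and the other 7 did not pass the test (limma, Benjamini-Hochberg adjusted p under 0.05 over all genes tested). Across the array 8.01% of genes were called, 4.81% higher and 3.21% lower. Among protein-coding genes above the median brightness, 18% were called, so 2 of 9 is close to that share. The groups did not overlap for 6 of the 9 genes, against 25.3% of all genes. That share covers non-coding genes as well, and was not computed for protein-coding genes alone. Among the measured genes of the pathway lists described below, 44 of 88 did not overlap. Both called genes also changed by at least 2-fold, which 1.95% of all genes did with a call.

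ELMO1, the adaptor that recruits DOCK1 and RAC1 and lies on chromosome 7, had the largest difference. Its log2 signal was 10.84, 10.76 and 10.75 in knockout cells, against 7.32, 6.97 and 7.24 in control cells. The 3 knockout arrays lay close together, and all were far above the highest control array. The difference was 3.61 (SE 0.13, 95% interval 3.31 to 3.90), or 12.2-fold higher (limma adjusted p = 8.1e-08). By size it was the 11th of the 1614 rises on the array. In bulk RNA, a rise in every cell and a larger share of cells with the transcript cannot be told apart.

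ELMO2 and ELMO3 did not pass the test. ELMO2, an adaptor that also pairs with DOCK4, read 8.57, 8.23 and 8.12 in knockout cells and 7.97, 8.06 and 8.11 in control cells. The groups did not overlap, but the third knockout array lay just above the highest control array. The difference was 0.26 (95% interval -0.06 to 0.58, limma adjusted p = 0.36), and 0.13 without knockout replicate 1. ELMO3, the remaining family member, read 6.40, 6.34 and 6.28 in knockout cells and 6.06, 6.10 and 5.39 in control cells. Its difference of 0.49 (95% interval 0.09 to 0.90, limma adjusted p = 0.15) rested in part on the low value of control replicate 3, without which it was 0.26. The intervals of ELMO2 and ELMO3 both end far below that of ELMO1.

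Change within the family was also described inside each array, as the difference between the log2 signals of a pair of genes. Its shift between groups follows from the differences of the single genes given above, so it adds no separate support. ELMO1 minus ELMO2 averaged 2.47 ± 0.19 in knockout and -0.87 ± 0.22 in control cells (SD, n = 3 each), a shift of 3.35. ELMO1 minus ELMO3 averaged 4.44 ± 0.02 in knockout and 1.33 ± 0.49 in control cells, a shift of 3.11. In both pairs the groups did not overlap, and the exact two-sided permutation test gave p = 0.1, the smallest that 3 arrays against 3 allow (adjusted p = 0.15 over 6 pairs). ELMO2 minus ELMO3 averaged 1.97 ± 0.18 in knockout and 2.20 ± 0.45 in control cells, and the groups overlapped (exact permutation p = 0.5).

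The exchange factors that bind ELMO proteins showed no call. DOCK1, the main partner of ELMO1 in migration, on chromosome 10, read 8.48, 8.53 and 8.85 in knockout cells and 8.33, 7.73 and 8.51 in control cells. The groups overlapped, and control replicate 2 was the lowest of the 6. The difference was 0.43 (95% interval -0.01 to 0.87, limma adjusted p = 0.26), and 0.20 without that array. DOCK4, which acts with ELMO2 and RHOG and also on the GTPase RAP1, lies on chromosome 7. It read 7.82, 7.72 and 7.45 in knockout cells and 7.67, 7.52 and 7.87 in control cells, so the groups were interleaved. Its difference of -0.02 had a 95% interval of -0.35 to 0.30 (limma adjusted p = 0.96).

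DOCK5, a RAC1 exchange factor close to DOCK1 in sequence, on chromosome 8, read 12.34, 12.44 and 12.38 in knockout cells and 12.60, 12.57 and 12.70 in control cells. Every knockout array was lower than every control array, but by little. The difference was -0.24 (95% interval -0.50 to 0.02, limma adjusted p = 0.30). Inside arrays, DOCK1 minus DOCK5 shifted by 0.67 and DOCK1 minus DOCK4 by 0.45, both without overlap between groups (exact permutation p = 0.1, the smallest possible, adjusted p = 0.15). For DOCK1 minus DOCK4 the groups stood only 0.00049 apart, and they overlapped after repeated quantile normalization. Without control replicate 2, the array low for DOCK1, the shifts were 0.47 and 0.31, and without knockout replicate 3 they were 0.55 and 0.23. DOCK4 minus DOCK5 shifted by 0.22 with overlap (exact permutation p = 0.2).

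RAC1, the GTPase that the module activates, read 16.41, 16.26 and 16.33 in knockout cells and 16.57, 16.69 and 16.53 in control cells. All knockout arrays were below all control arrays. The difference was -0.27 (95% interval -0.54 to 0.01, limma adjusted p = 0.26), and it was called when limma's moderation was made robust with a trend on intensity (adjusted p = 0.029). Only 0.567% of all values exceed 16, as those of RAC1 do, and the scale may be stretched, there or over its whole range. RHOG, the GTPase upstream of ELMO, read 8.24, 8.45 and 8.25 in knockout cells and 8.21, 8.11 and 8.31 in control cells. Its groups overlapped, with a difference of 0.11 (95% interval -0.18 to 0.39, limma adjusted p = 0.73). It was 0.037 without knockout replicate 2, 0.055 without control replicate 2 and 0.063 after repeated quantile normalization. The arrays measure RNA and not the GTP-bound state of either protein.

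GPR141 read 8.04, 8.45 and 8.09 in knockout cells and 6.66, 6.38 and 6.67 in control cells. All 3 knockout arrays lay above all 3 control arrays, with the second knockout array the highest. The difference was 1.62 (SE 0.15, 95% interval 1.29 to 1.96), or 3.08-fold higher (limma adjusted p = 6.9e-05), the 107th rise by size.

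**Figure D2:**
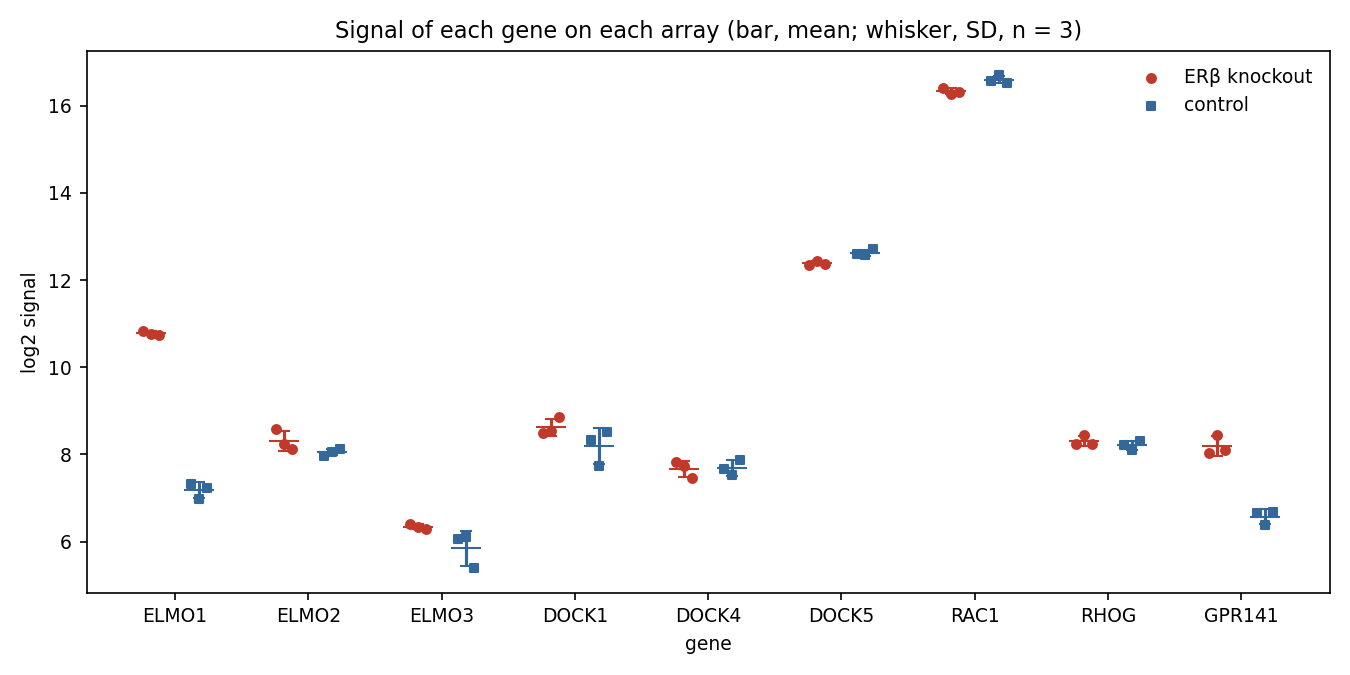
Log2 signal (vertical axis) of the 9 genes (horizontal axis) on each array, ERβ knockout as red circles and control as blue squares, with the mean as a bar and the SD as whiskers (n = 3). Group means, knockout minus control, differ by 3.61 for ELMO1 and by 1.62 for GPR141, and by -0.27 to 0.49 for the other 7 genes. The arrays of the groups overlap for DOCK1, DOCK4 and RHOG.

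**Figure D3:**
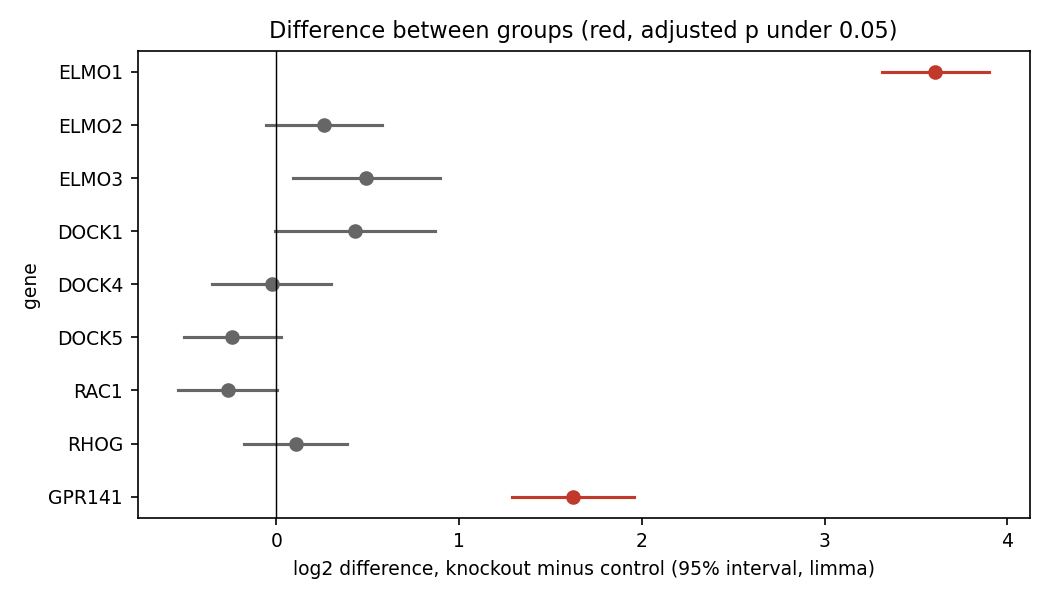
Log2 difference, knockout minus control (horizontal axis), with its 95% interval from limma, for each gene (vertical axis). The intervals of ELMO1 (3.31 to 3.90) and GPR141 (1.29 to 1.96), in red, lie clear of those of the other genes.

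ELMO1 and GPR141 are neighbours on chromosome 7, with 0 protein-coding genes between them in RefSeq order. The next gene beyond GPR141, NME8, which codes for a thioredoxin-domain protein of cilia, was called higher too. It read 5.98, 6.64 and 5.98 in knockout cells and 5.28, 5.30 and 5.77 in control cells. These groups did not overlap. The difference was 0.75 (SE 0.20, limma adjusted p = 0.044), the control mean of 5.45 lay below the background level, and the call was lost without any 1 of 5 of the 6 arrays (all but control replicate 3) and with a replicate block (adjusted p up to 0.16). Differences thus stood at 3.61, 1.62 and 0.75 for ELMO1, GPR141 and NME8 in their order along the chromosome.

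The genes on either side of these did not pass. On the ELMO1 side, AOAH, a lipopolysaccharide-deacylating enzyme, differed by -0.20 and ANLN, the cytokinesis protein anillin, by 0.17. Further out on that side, MATCAP2 differed by -0.08, EEPD1 by 0.20 and SEPTIN7, a septin, by 0.12. Beyond NME8, SFRP4, a secreted WNT antagonist, differed by -0.22, EPDR1 by 0.09, STARD3NL by -0.30 and AMPH, amphiphysin, by 0.17, with adjusted p of 0.26 to 0.80 over both sides. AOAH (4.17 in knockout and 4.37 in control cells) and AMPH (4.51 and 4.34) lay below the background level in both groups. SFRP4 lay below it in knockout cells (5.47) and EEPD1 in control cells (5.54). At such signals a change could be missed, so these genes do not mark where the rise ends. Over the 783 protein-coding genes measured on chromosome 7 the median difference was 0.08, with 63 higher and 27 lower. The antisense gene ELMO1-AS1, named after its values were seen, was below the background level in both groups, at 3.60 ± 0.19 in knockout and 3.43 ± 0.08 in control cells (SD, n = 3 each, limma adjusted p = 0.59).

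**Figure D4:**
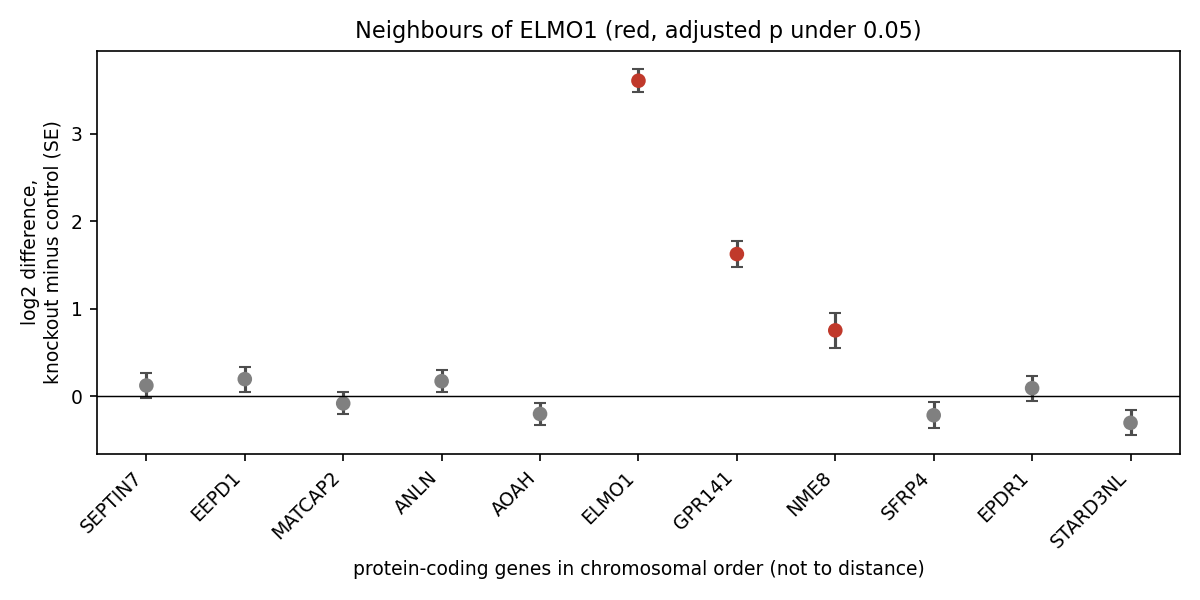
Log2 difference, knockout minus control, with its SE (vertical axis), for ELMO1 and the 5 measured protein-coding genes on each side in chromosomal order (horizontal axis, not to distance). ELMO1 (3.61), GPR141 (1.62) and NME8 (0.75), in red, are adjacent, and the remaining genes lie between -0.30 and 0.20. The signal of AOAH was below the background level in both groups.

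The surroundings of the other module genes were counted in the same way. Of the 10 neighbours counted for each gene, 3 were higher beside DOCK4, 2 each beside DOCK5 and RAC1, 1 each beside ELMO2 and ELMO3, and 0 beside DOCK1 and RHOG, and none was lower beside any of these 7. For comparison, 7.94% of all protein-coding genes were called higher and 4.77% lower. Among those above the median brightness the shares were 11.1% and 6.83%, so few calls are usual among 10 genes. Most neighbours of DOCK1, such as NPS (3.97 in knockout and 3.99 in control cells), lay below the background level in both groups. So did some beside other genes, such as NEFM beside DOCK5 (4.08 and 3.95). Counts beside different genes are therefore not like for like. Median differences of the 10 neighbours ran from 0.02 beside DOCK1 to 0.33 beside DOCK4. The neighbours called beside DOCK4 were PNPLA8, a phospholipase (0.58), DNAJB9, a chaperone of the endoplasmic reticulum (0.99), and ZNF277 (0.58), although DOCK4 itself differed by -0.02.

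Because ELMO1 and GPR141 rose side by side, the sequences around their transcription starts are shown, 250 bases before and 50 after each start, from RefSeq (GRCh38.p14). That table matched 7 of the 10 genes and lists 4 starts for ELMO1, of which the first 3 in the direction of transcription are printed, and 1 for GPR141. All are given 5′ to 3′ on the gene's own strand, with capitals for any match on either strand. The motifs were GGTCA (the repeat unit of the estrogen response element), GGGCGG (the GC box) and TGANTCA. The last is a loose form of the AP-1 site, which has C or G where the search allowed any base. The full estrogen response element, GGTCA followed by 3 bases of any kind and TGACC, was searched too, and contains the unit.
At the first ELMO1 start, chr7:37449277-37449576, minus strand: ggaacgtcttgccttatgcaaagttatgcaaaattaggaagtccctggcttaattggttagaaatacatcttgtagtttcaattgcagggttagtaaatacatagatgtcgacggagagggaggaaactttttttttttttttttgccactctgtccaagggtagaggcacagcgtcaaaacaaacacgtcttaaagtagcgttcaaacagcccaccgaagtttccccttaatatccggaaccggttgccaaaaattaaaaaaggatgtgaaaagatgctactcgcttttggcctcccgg
At the second ELMO1 start, chr7:37448815-37449114, minus strand: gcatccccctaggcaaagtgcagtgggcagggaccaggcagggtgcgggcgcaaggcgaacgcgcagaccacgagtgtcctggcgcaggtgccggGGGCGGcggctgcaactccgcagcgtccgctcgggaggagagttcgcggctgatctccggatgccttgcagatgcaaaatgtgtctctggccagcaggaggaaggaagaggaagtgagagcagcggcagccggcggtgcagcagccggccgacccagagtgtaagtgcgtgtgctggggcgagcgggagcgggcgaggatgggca
At the third ELMO1 start, chr7:36986084-36986383, minus strand: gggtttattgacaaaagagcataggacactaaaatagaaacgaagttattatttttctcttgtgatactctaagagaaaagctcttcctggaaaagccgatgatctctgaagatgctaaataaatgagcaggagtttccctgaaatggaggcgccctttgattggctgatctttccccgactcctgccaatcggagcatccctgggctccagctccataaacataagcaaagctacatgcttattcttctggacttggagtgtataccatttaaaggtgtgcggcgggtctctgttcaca
At the GPR141 start, chr7:37683516-37683815, plus strand: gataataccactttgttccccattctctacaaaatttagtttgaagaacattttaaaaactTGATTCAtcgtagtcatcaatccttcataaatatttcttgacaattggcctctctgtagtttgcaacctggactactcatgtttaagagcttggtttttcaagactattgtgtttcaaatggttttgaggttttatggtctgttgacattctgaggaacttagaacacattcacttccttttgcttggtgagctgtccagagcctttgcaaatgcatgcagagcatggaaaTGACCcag
The full element was in none of the windows of the 7 genes, and is in 0.057% of all 35116 promoter windows in the table. The second ELMO1 start held 1 GC box, a motif found in 45% of all windows, and the other 3 ELMO1 windows held none of the 4 motifs. The GPR141 window held 1 match to TGANTCA, found in 7.71% of windows, and 1 match to GGTCA, found in 37.4%. The first of these has T in the middle, and so differs from the AP-1 site itself. The bases of the GPR141 window were 37.3% G or C, against 41.7% at the first, 68.3% at the second and 43.7% at the third ELMO1 start. One probe set summarises ELMO1, so the values used here do not show which start was used.

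Genes whose profile over the 6 arrays was most like that of ELMO1 were sought among 17370 protein-coding genes, by the root-mean-square difference after centring each gene on its own mean. The nearest was CYP4X1, a cytochrome P450 (0.090 log2 units), followed by CLEC3A, a C-type lectin (0.18), S100A9, a calprotectin subunit (0.19), CATSPERB, a sperm calcium channel subunit (0.25), and TFPI2, a serine protease inhibitor (0.26). Their differences were 3.64, 3.76, 3.42, 3.53 and 3.26, close in size to that of ELMO1. With 2 groups of 3 arrays, likeness here means little more than a similar difference between the groups.

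Beyond the 10 genes, 97 genes of the pathway in 7 lists are described, of which 88 were measured. In knockout cells 14 of them rose, 11 fell and 63 did not pass, with a median difference of 0.15, against 0.02 over all genes tested. The share called, 28.4%, stands beside 8.01% of all genes, 12.7% of protein-coding genes (7.94% higher and 4.77% lower) and 18% of protein-coding genes above the median brightness (11.1% higher and 6.83% lower), and this difference in shares was not tested. Of the 73 list genes above the median brightness, 34.2% were called. The lists were chosen with earlier results of these data known, so these shares cannot show that the pathway changed more than other genes. Without single arrays, 8 to 12 of the list genes were higher and 6 to 10 lower. Leaving out knockout replicate 2 gave 8 rises and 7 falls. Leaving out knockout replicate 3 gave 9 rises and 6 falls. With control replicate 1 left out 9 genes rose, and with control replicate 3 left out 6 fell. Over 12 alternatives of scaling, moderation, probe set choice, blocking and left-out arrays, 13 of the 25 called genes kept their call in each, and 12 lost it in at least 1.

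Among 7 other measured DOCK proteins, 0 rose and 2 fell, with a median difference of -0.13. DOCK10, an exchange factor for CDC42 and RAC1, read 9.83, 9.68 and 10.06 in knockout cells and 12.28, 12.13 and 12.02 in control cells. Every knockout array lay well below every control array, and DOCK10 was 4.88-fold lower (difference -2.29, limma adjusted p = 4.1e-06). With the mean of all its probe sets in place of the brightest, the difference was smaller, at -1.32 (adjusted p = 0.0010). DOCK9, an exchange factor for CDC42, read 7.55, 7.89 and 7.58 in knockout cells and 8.51, 7.98 and 8.63 in control cells. It was 1.62-fold lower (difference -0.70, adjusted p = 0.039), and the call was lost without knockout replicate 1 or 3 or control replicate 1 or 3 or with a replicate block (adjusted p up to 0.14). DOCK2, the RAC exchange factor of leukocytes, stayed below the background level at 4.26 in knockout and 4.01 in control cells, and so did DOCK8 at 4.58 and 4.39. Of the 3 ELMO-domain relatives, ELMOD2, a GTPase-activating protein for the ARL2 GTPase, was 1.94-fold higher, at 14.02 in knockout and 13.06 in control cells (adjusted p = 0.00092).

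DOCK10 stands among genes that were also lower in knockout cells. Of its 10 chromosomal neighbours on chromosome 2, 5 were called lower and 1 higher, with a median difference of -0.43. Over the array, 4.77% of protein-coding genes were called lower and 7.94% higher. Lower neighbours were also counted for FARP2 and ITGAV, also on chromosome 2, with 5 of 10 neighbours lower beside each and medians of -0.50 and -0.46, and for ARHGEF7 on chromosome 13, with 7 of 10 lower and a median of -0.71. Around PAK2 on chromosome 3, 5 of 10 neighbours were higher, with a median of 0.53. These neighbourhoods were examined after the list genes had been seen, and their part in the changes of the genes themselves was not tested. Fewer neighbours went the same way beside 4 further called genes. ARHGEF26 and DOCK9, both lower, had 4 of 10 neighbours lower and 1 and 0 higher (medians -0.099 and -0.065). GULP1, also lower, had 3 lower and 1 higher (median -0.069). ARHGAP15, which was higher, had 4 higher and 1 lower (median 0.29). Several other called genes had few or no neighbours called in their own direction. Beside CXCR4, MERTK and SRGAP3, which were themselves lower, 0 of 10 neighbours were lower and 4, 1 and 0 were higher, with medians of 0.19, 0.15 and 0.12. For ARHGDIB and ITGB5, which were higher, 2 and 0 of 10 neighbours were higher and 0 and 2 lower (medians 0.11 and -0.05). IQGAP1, ELMOD2 and ABCA1, also higher, had 2 neighbours higher each and 0, 0 and 1 lower (medians 0.30, 0.16 and 0.098).

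Of 17 measured RAC exchange factors outside the DOCK family, 3 rose and 2 fell (median difference -0.00063). SOS2 and SOS1, which activate RAS and RAC, were 1.75-fold and 1.63-fold higher (adjusted p = 0.0069 and 0.018), and VAV1, mainly a leukocyte factor, was 1.60-fold higher (adjusted p = 0.023). SOS1 lost its call without knockout replicate 1 or 2, and VAV1 without any knockout replicate or control replicate 1, with adjusted p up to 0.078 and 0.093. ARHGEF7, the PAK-binding exchange factor beta-PIX, was 2.36-fold lower, at 8.54 in knockout and 9.78 in control cells (adjusted p = 0.00024). FARP2 was 1.52-fold lower (adjusted p = 0.027), a call lost without knockout replicate 2 or 3 or control replicate 3 or with a replicate block (adjusted p up to 0.12).

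Of 14 measured genes that turn RAC off or sequester it, 4 rose and 1 fell (median difference 0.20). ARHGDIB, an inhibitor that holds small GTPases in the cytosol, read 13.35, 13.12 and 12.62 in knockout cells and 11.12, 10.59 and 10.82 in control cells. The groups did not overlap, and it was 4.55-fold higher (difference 2.19, limma adjusted p = 5.5e-05). ARHGAP15, a RAC GTPase-activating protein, was 2.04-fold higher (adjusted p = 0.0010), at 6.73 in knockout and 5.70 in control cells, the second close to background, and its call was lost with the mean of all its probe sets (adjusted p = 0.20). SRGAP1, a GTPase-activating protein of the SLIT-ROBO pathway, was 1.71-fold higher (adjusted p = 0.0031), and its relative SRGAP3 was 1.89-fold lower (adjusted p = 0.0014). ARHGDIA, the widely expressed RhoGDI, was 1.39-fold higher (adjusted p = 0.035), but not once any single array was dropped, with a replicate block or after repeated quantile normalization (adjusted p up to 0.11).

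Of 15 measured RAC effectors, 2 rose and 0 fell (median difference 0.16). PAK2, a kinase activated by RAC and CDC42, read 13.93, 14.09 and 14.08 in knockout cells and 12.78, 13.27 and 12.98 in control cells, and was 2.03-fold higher (adjusted p = 0.0014). IQGAP1, a scaffold that binds active RAC1 and CDC42, was 1.35-fold higher, and it too failed whichever array was left out, with a replicate block and after repeated quantile normalization (adjusted p up to 0.16). Of the WAVE complex subunits measured, none passed. Their differences ran from -0.38 for NCKAP1 to 0.46 for both ABI1 and WASF2.

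Of 19 measured receptors and adaptors upstream of the module, 2 rose and 4 fell (median difference 0.12). The subunits of the integrin pair alpha-v beta-5, which signals through CRK and DOCK1 in engulfment, went opposite ways. ITGB5 read 11.07, 10.91 and 10.81 in knockout cells and 9.71, 9.76 and 9.64 in control cells, 2.34-fold higher (adjusted p = 0.00014). ITGAV read 13.06, 13.08 and 13.13 in knockout cells and 14.17, 14.07 and 14.25 in control cells, 2.10-fold lower (adjusted p = 0.00026). Neither pair of groups overlapped, and both calls held in each of the 12 alternatives. SRC, a kinase acting on p130Cas, was 1.54-fold lower and GNAI2, an inhibitory G protein subunit, 1.56-fold higher (adjusted p = 0.037 and 0.025), but SRC failed without knockout replicate 2 or 3 or control replicate 1 or 3 and GNAI2 without any array other than control replicate 3 (adjusted p up to 0.14 and 0.090). ARHGEF26, an exchange factor for RHOG, was 1.42-fold lower (adjusted p = 0.045) and CXCR4, a chemokine receptor, 1.51-fold lower. Both failed with array medians set equal, with a replicate block and without most single arrays, other than control replicate 2 for ARHGEF26 and control replicate 1 for CXCR4 (adjusted p up to 0.14 and 0.16), and CXCR4 also failed with the mean of all its probe sets. CRKL, the relative of CRK, differed by -0.42 (adjusted p = 0.076).

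Of 13 engulfment genes, 2 rose and 2 fell (median difference 0.12). GULP1, an adaptor of engulfment receptors, read 12.86, 12.82 and 12.84 in knockout cells and 14.09, 14.18 and 14.15 in control cells, 2.46-fold lower without overlap (adjusted p = 5.5e-05). MERTK, a receptor for apoptotic cells, was 1.61-fold lower (adjusted p = 0.0060), at 8.52 in knockout and 9.20 in control cells. ABCA1, a cholesterol exporter tied to engulfment, was 2.07-fold higher (adjusted p = 0.0038). MFGE8, a secreted bridge between apoptotic cells and alpha-v integrins, was 1.56-fold higher (adjusted p = 0.033), but not after repeated quantile normalization or without knockout replicate 2 or 3 or control replicate 1 or 2 (adjusted p up to 0.12).

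**Figure D5:**
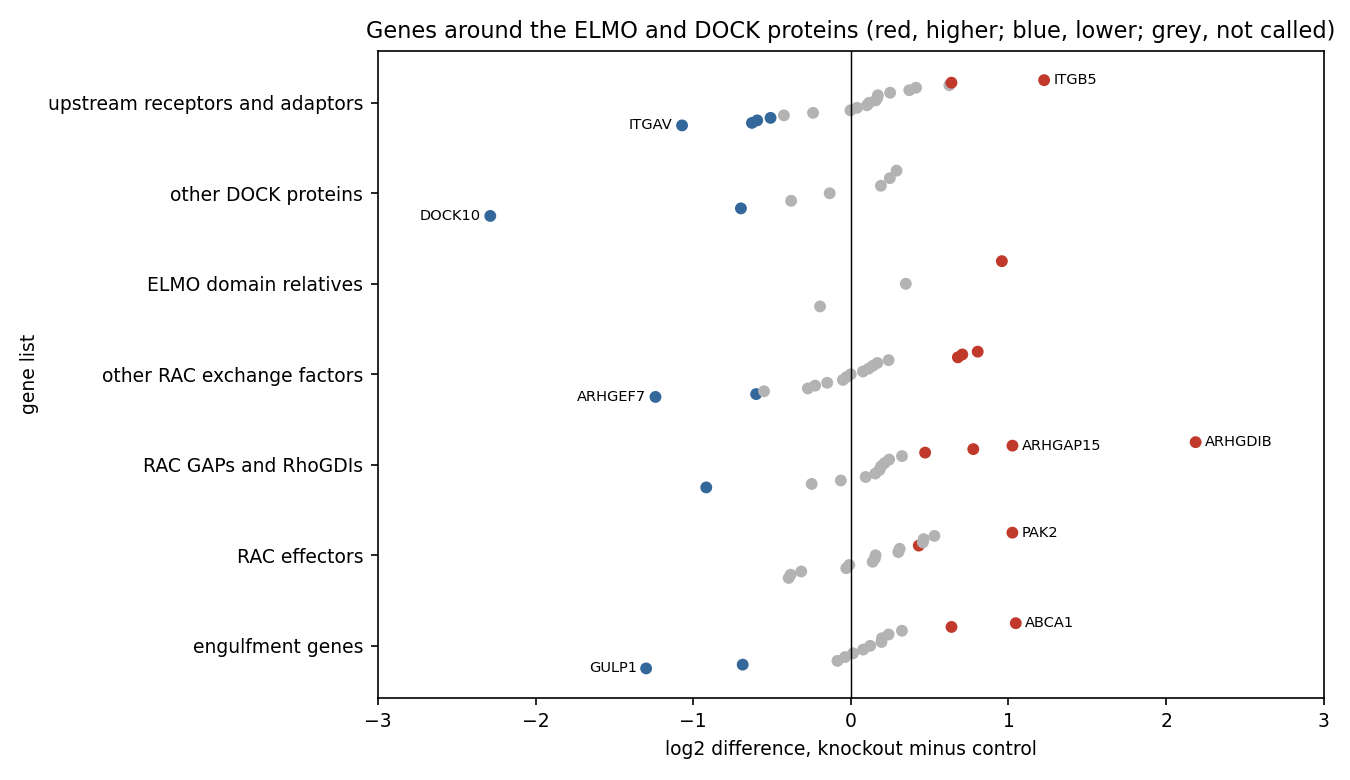
Log2 difference, knockout minus control (horizontal axis), of the measured genes in 7 lists around the ELMO and DOCK proteins (vertical axis), with red for genes called higher, blue for genes called lower and grey for the rest. DOCK10 (-2.29) and ARHGDIB (2.19) lie farthest from 0, and called genes that differ by at least 1 are named.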

How the data were processed

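Biotin-labelled cDNA from total RNA of 3 ERβ knockout and 3 control KPL4 samples was put on Affymetrix arrays, as the labels' protocols state. Values deposited by the authors are log2 signals, and the submitters' processing notes name RMA and Transcriptome Analysis Console. Versions and genome build are not given in the sources used here. With RMA, background is corrected, arrays are brought to 1 distribution and probes are summarised, so a change common to all genes of an array is lost. That the scale is log2 was read off the range, 1.92 to 19.92. The highest exceed 16, the limit of a plain log2 16-bit reading, so the scale may be stretched, which was not tested. Scanner files were not used here, and the number of arrays limits the precision.

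Of 134748 probe sets, 35528 had 1 gene symbol, and the brightest per gene gave 33578 genes. Symbols were updated through Entrez IDs with RefSeq, which also gave chromosomes and gene order. The comparison used lmFit and eBayes of limma 3.58.1 (R 4.3.3, data.table package, version 1.17.8), two-sided, Benjamini-Hochberg adjusted over all genes, with 4 residual and 6.84 prior degrees of freedom. The fit was tested on simulated data. The named genes were the 10 module genes, ESR2, up to 4 called genes per list and direction, the 5 profiles nearest to ELMO1, and 5 neighbours on each side of each module gene. Genes of the lists given with values but no call serve as context and were chosen after their values were seen. Module genes and lists were chosen with earlier results of these data known. One list is not reported here.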

Additional observations from a re-analysis of the deposited data

How the results depend on the processing

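The rises of ELMO1 and GPR141 were called in each of the 12 alternatives, with log2 differences of 3.50 to 3.68 (adjusted p up to 3.9e-06) and 1.496 to 1.70 (adjusted p up to 0.00058). No module gene was called lower except 1, RAC1, when moderation was robust with a trend on intensity (adjusted p = 0.029). With 1 array left out, DOCK4 ran from -0.11 to 0.082 and changed sign without knockout replicate 3 (0.082) and without control replicate 3 (0.068), with no call, and the cause was not tested. The other 5 module genes kept their direction and stayed without a call. Leaving out 1 array, which lowers the number of samples, gave 1008 to 1378 genes higher and 660 to 925 lower over the array, against 1614 and 1077 with all 6. The pathway lists then had 8 to 12 genes higher and 6 to 10 lower, against 14 and 11, and 7 lower with a replicate block. Within families, 3 to 5 of the 6 pairs did not overlap between groups, against 4. Replicate numbers did not pair the arrays: deviations from the group means of same-numbered arrays correlated at -0.009, -0.014 and -0.030 across genes, so the block stands only as an alternative, with 2 module genes higher as in the main setting. Signals near background, such as those of ELMO3 and NME8, limit what their differences show.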
